A study of Mus musculus with 38 samples.

Results

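JunB sites that were occupied both before and after depolarisation were examined in cultured mouse cortical neurons. They were chosen by the deposited peak lists of JunB chromatin immunoprecipitation followed by sequencing (ChIP-seq). A peak of the unstimulated JunB list was called retained when it shared at least 1 bp with a peak of the KCl JunB list. This gave 1689 retained peaks among the 3126 unstimulated JunB peaks (54%, Wilson 95% interval 52.3 to 55.8% for counting error only), and the other 1437 are called not retained. Both JunB lists came from 1 library each, of the same culture (biological sample 4, antibody sc46), so retention itself has no replicate check. The retained peaks lay in 1608 of the 19346 KCl JunB peaks (8.31%). The remaining 17738 KCl JunB peaks, with no unstimulated partner, are called KCl-only.

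JunB is a member of the Jun family. With a Fos family protein such as c-Fos or FosB it forms the dimer AP-1, a transcription factor that binds short DNA elements at promoters and enhancers. Neuronal activity induces the genes of all these proteins as part of the immediate early response, and Jun proteins can also pair with each other or with ATF and CREB family proteins. Acetylation of histone H3 at lysine 27 (H3K27ac) marks active promoters and enhancers, whereas CBP, an acetyltransferase, and H3K4me1 mark enhancers more generally.

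All neurons came from cortices of C57BL/6 embryos of day 16.5 and had grown for 7 days in vitro. Firing was blocked overnight in every group, with 1 µM TTX against sodium channels and 100 µM DL-AP5 against NMDA receptors. Cultures then stayed blocked (unstimulated, also called silenced here) or received KCl for 2 h to depolarise them. c-Fos (antibodies sc52 and sc7202) and FosB (sc48) were mapped in both conditions in biological samples 3 and 4. Biological samples 5 and 6 all received KCl and were infected with a control shRNA, an shRNA against c-Fos (then mapped with sc52) or an shRNA against FosB (then mapped with sc48). H3K27ac lists merged biological samples 1 and 2. Each library is of a whole culture, so the cell types behind a peak cannot be told apart. The 20 other AP-1 lists held between 557 and 28885 peaks, their read depth is unknown, and a longer list overlaps more sites. Positions are those of genome build mm9. No gene names or sequences are given, because no annotation or genome of that build was used here.

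Retention went with the strength of the unstimulated JunB peak. Scores are the authors' and rise with the negative log10 of the peak's p-value. They are compared only within a list, and here they are a description, since the same list chose the peaks. The median score was 109.73 for retained and 60.7 for not retained peaks, with quartiles of 67.73 and 187.08 against 53.91 and 84.12. With the list split by score into 10 groups of equal size, in the best-scoring group 293 of 313 peaks (93.6%) were retained, and in the lowest-scoring group 86 of 312 (27.6%). The share fell at each step between them. A median width of 281 bp was found for retained and 184 bp for not retained peaks.

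**Figure D1:**
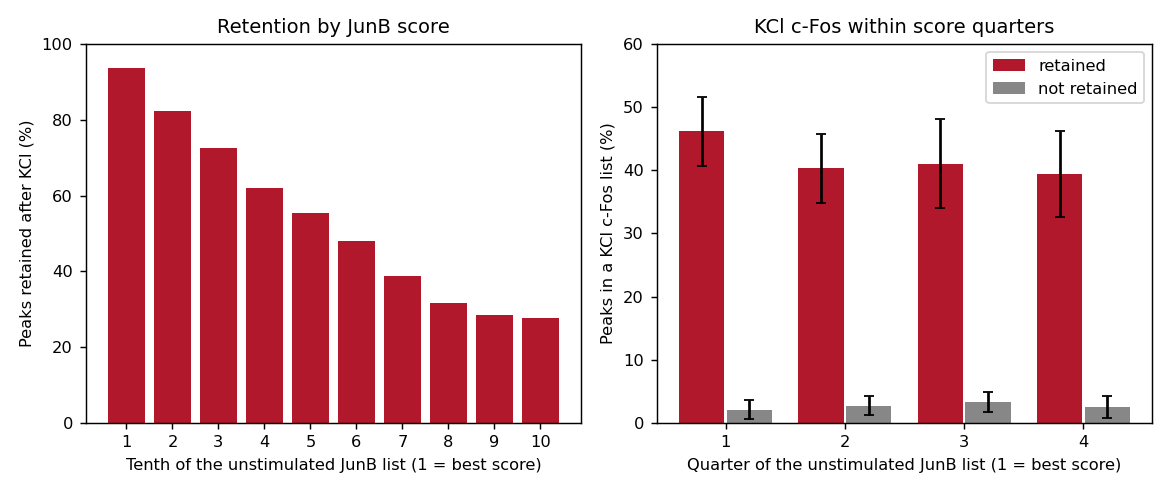
Left, share of unstimulated JunB peaks retained after KCl (%, bars) in each of 10 equal groups of the list by score; it falls from 93.6% to 27.6%. Right, mean share (%) of retained and not retained peaks in the 6 KCl c-Fos lists within each of 4 equal groups by score (error bars, SD over the 6 libraries); retained peaks stay between 39.4% and 46.2% and the others between 2.08% and 3.28%.

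KCl JunB peaks were wider throughout the list, with medians of 738.5 bp at retained sites and 674 bp for KCl-only peaks, so the overlap rule and the longer, wider list shape the next values. Of the 1689 retained peaks, 1595 (94.4%) lay wholly inside the KCl peak, and in 1687 the KCl peak was the wider, with a median width ratio of 2.58. The 2 centres were a median of 59.5 bp apart (quartiles 27.5 and 109.5 bp). The KCl peaks at retained sites had a median score of 127 against 80.95 for KCl-only peaks. Of the retained peaks, 471 (27.9%) lay in the best-scoring 10% of the KCl list and 4.56% in its lowest 10%. The edge of the rule touched few peaks. The smallest overlaps were 20, 41 and 43 bp, the narrowest gaps of peaks left out were 5, 5 and 24 bp, and 29 of the 1437 not retained peaks had a KCl peak within 500 bp. Their median distance to the nearest KCl JunB peak was 39737 bp. Retention varied between 41.6% (chromosome 11, 62 of 149 peaks) and 62.6% (chromosome 9, 139 of 222) over the autosomes and was 51.2% on chromosome X (22 of 43). Some retained peaks share a KCl peak (59 KCl peaks held 2 or more), so they are not independent sites. Another retained peak lay within 10 kb of 198 of them (11.7%), against 95 (6.61%) for not retained peaks among themselves.

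c-Fos was mapped to many retained sites after KCl and to few of the others. By the rule, every retained peak had a KCl JunB peak and the others had none. The contrast thus cannot tell retention apart from JunB occupancy after KCl. KCl-only JunB peaks, which are wider, had a mean KCl c-Fos share of 53.4% ± 14.5 (SD, n = 6 libraries). The share of retained peaks that overlapped a KCl c-Fos peak was 46.6% and 34.9% with sc52 in biological samples 3 and 4. With sc7202 it was 49.9% and 43.2%, and with sc52 under control shRNA 37.4% and 43.9% in biological samples 5 and 6. For not retained peaks these 6 shares were 2.99%, 1.04%, 5.08%, 2.09%, 2.09% and 3.27%. The ranges of the 2 kinds of peak did not overlap. The means were 42.6% ± 5.60 (SD, n = 6 libraries from 4 cultures) against 2.76% ± 1.38. The difference was 39.9 percentage points and was positive in 6 of 6 libraries (exact two-sided sign-flip permutation test over libraries, p = 0.03125, the smallest that 6 libraries allow; Benjamini-Hochberg adjusted over the 6 tests of this kind, p = 0.1875). With differences averaged within each culture (a replicate block) it was 39.4 points, and the exact permutation p was 0.125, the smallest for 4 cultures. At least 1 of the 6 lists held 1178 of the retained peaks (69.7%), 150 of the others (10.4%) and 42.5% of all unstimulated JunB peaks. All 6 lists held 325 retained peaks (19.2%) and 1 not retained peak.

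The score of the JunB peak differs between the 2 kinds, so the shares were also taken within 4 equal groups of the list by score, a comparison added after the values were seen. In the best-scoring group (scores of 134.47 and above) the mean KCl c-Fos share was 46.2% ± 5.44 for 670 retained and 2.08% ± 1.46 for 112 not retained peaks (SD, n = 6 libraries). In the lowest group (scores up to 57.35) it was 39.4% ± 6.81 for 225 retained and 2.49% ± 1.75 for 556 not retained peaks. A retained peak just above the calling threshold thus carried KCl c-Fos about as often as a strong one. A strong peak that was not retained did so rarely. In each score group all retained peaks still overlapped a KCl JunB peak and the others did not. The split by score therefore cannot separate retention from JunB occupancy after KCl.

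**Figure D2:**
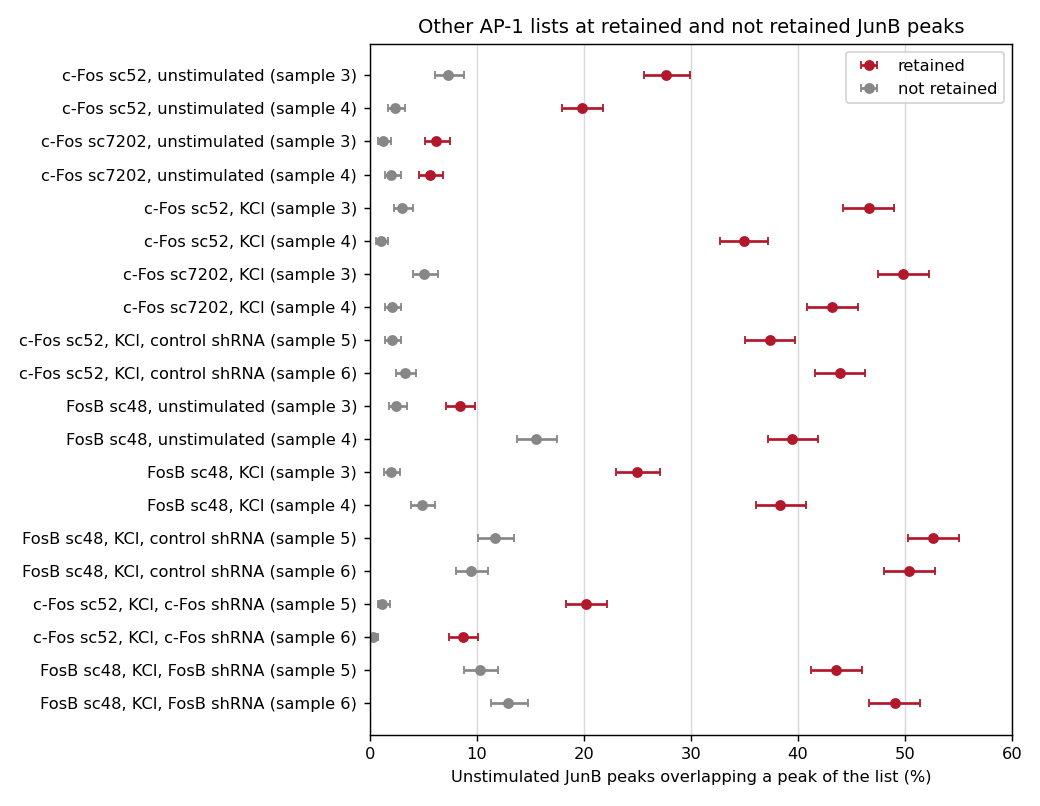
Share of retained and not retained JunB peaks (%, horizontal axis) that overlap a peak of each of the 20 other AP-1 lists, with Wilson 95% intervals for counting error; sample is the biological sample. The retained share lies to the right of the other in every list, by 3.61 points in the list with the smallest difference and 44.8 points in that with the largest.

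Silenced neurons showed less c-Fos at retained sites, and most of it came from 1 antibody. With sc52 an unstimulated c-Fos peak overlapped 27.7% and 19.8% of retained peaks in biological samples 3 and 4, and with sc7202 6.22% and 5.62%. The shares of not retained peaks were 7.31%, 2.37%, 1.25% and 2.02%. Within each library the retained share was the higher, but the retained shares with sc7202 lay below the highest share of not retained peaks with sc52. The mean difference was 11.6 ± 8.56 points (SD, n = 4 libraries, positive in 4 of 4; exact sign-flip permutation p = 0.125, the smallest possible, adjusted p = 0.1875). It was 2.74 points among peaks with a JunB score below the list's median and 13.3 points above it. Without the 53 retained sites listed in all 20 other lists, described below, it was 8.85 points. At least 1 of the 4 lists held 574 retained (34.0%) and 147 not retained peaks (10.2%), against 23.1% of all unstimulated JunB peaks.

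c-Fos at retained sites was more frequent after KCl than before in each matched pair. In biological sample 3 the number of retained peaks with c-Fos went from 468 to 787 with sc52 and from 105 to 842 with sc7202. In biological sample 4 it went from 335 to 590 and from 95 to 730. The mean change was 28.8 ± 13.9 points (SD, 4 pairs from 2 cultures, higher in 4 of 4; exact sign-flip permutation p = 0.125, the smallest possible, adjusted p = 0.1875). Of the retained sites with c-Fos in silenced neurons, 76.1% and 61.8% with sc52 and 87.6% and 91.6% with sc7202 had it again after KCl. These shares include the 53 retained sites listed in all 20 other lists, described below, which have c-Fos in both conditions by definition. With sc7202 they are 53 of only 105 and 95 sites. Counted over all lists, 687 retained sites (40.7%) had c-Fos after KCl and in no unstimulated list, against 113 not retained peaks (7.86%) and 25.6% of all unstimulated JunB peaks. c-Fos in both conditions was listed at 491 retained (29.1%) and 37 not retained peaks (2.57%), with 16.9% over all. c-Fos before KCl alone went the other way, with 83 retained (4.91%) and 110 not retained peaks (7.65%), against 6.17% over all. The c-Fos lists were also longer after KCl, and the part of list length in this change was not tested.

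FosB showed the same order as c-Fos after KCl. Here too the rule fixed which peaks had a KCl JunB peak, so retention and JunB occupancy after KCl cannot be told apart. KCl-only JunB peaks had a mean KCl FosB share of 35.5% ± 17.2 (SD, n = 4 libraries). FosB overlapped 24.99% and 38.4% of retained peaks in biological samples 3 and 4 and 52.6% and 50.4% under control shRNA in biological samples 5 and 6. For not retained peaks the shares were 1.95%, 4.87%, 11.7% and 9.46%. The lowest retained share was above the highest of the others. The means were 41.6% ± 12.7 against 6.99% ± 4.40 (SD, n = 4 libraries), a difference of 34.6 points, positive in 4 of 4 (exact sign-flip permutation p = 0.125, the smallest possible, adjusted p = 0.1875). At least 1 of the 4 lists held 1162 retained (68.8%) and 277 not retained peaks (19.3%), with 46% over all unstimulated JunB peaks.

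In silenced neurons FosB at retained sites differed between the 2 cultures. The FosB list of biological sample 4, the culture of the JunB lists, held 39.5% of retained and 15.5% of not retained peaks. That of biological sample 3 held 8.41% and 2.51%, although it was the longer list (4229 against 2041 peaks). The mean difference of 14.9 points was 24.0 in the former and 5.90 in the latter (exact sign-flip permutation p = 0.5 with 2 libraries, the smallest possible, adjusted p = 0.5). Of the peaks in the biological sample 4 list, 44.6% overlapped an unstimulated JunB peak, while 11.5% overlapped the FosB list of biological sample 3, made with the same antibody in the same condition. Only biological sample 4 listed 540 of the retained sites, both cultures listed 127, and biological sample 3 alone listed 15. In at least 1 of the lists were 682 retained (40.4%) and 238 not retained peaks (16.6%), against 29.4% of all unstimulated JunB peaks. From silenced to KCl, FosB at retained sites went from 142 to 422 peaks in biological sample 3 and from 667 to 648 in biological sample 4. The number rose after KCl in 1 of 2 cultures. Protein, culture and library cannot be told apart in the overlap between FosB and JunB of biological sample 4.

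Most retained sites were shared with both Fos proteins when lists of several cultures and both conditions were pooled. Over all unstimulated JunB peaks, 42.5% were in a KCl c-Fos list and 46% in a KCl FosB list. Of the 1689, 1095 (64.8%) overlapped c-Fos and FosB in at least 1 of the 16 lists without knockdown, 166 (9.83%) c-Fos alone, 164 (9.71%) FosB alone and 264 (15.6%) neither. Among not retained peaks, 949 (66.0%) overlapped neither, 162 (11.3%) both, 98 (6.82%) c-Fos alone and 228 (15.9%) FosB alone. FosB alone was thus the more frequent at not retained peaks. With the 4 knockdown lists included, a retained peak was found in a median of 5 of the 20 other lists and a not retained peak in a median of 0. At least 10 lists held 482 retained (28.5%) and 9 not retained peaks (0.626%).

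**Figure D3:**
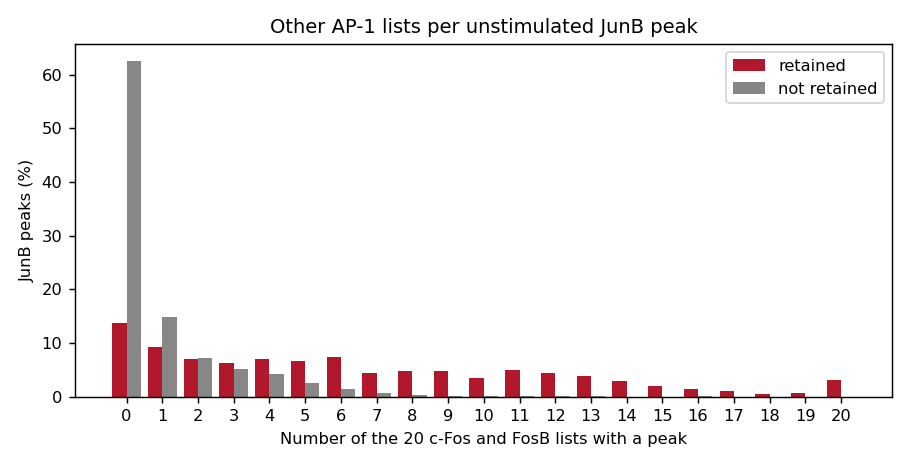
Share (%, vertical axis) of retained and not retained JunB peaks by the number of the 20 c-Fos and FosB lists with an overlapping peak. Not retained peaks pile up at 0 (899 peaks), whereas retained peaks spread from 0 (233 peaks) to all 20 lists (53 peaks).

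A small group of retained sites was listed in every library, whatever the protein, condition or shRNA. These 53 peaks had a median JunB score of 247 in silenced neurons and a median width of 175 bp, and 28 of them lay in the best-scoring 10% of the list. Of the 53, 5 lay on chrM or unplaced sequence, 2 lay in an H3K27ac peak and 0 held a CBP site. Of the not retained peaks, 0 were in all 20 lists. A cluster of 3 neighbouring sites on chromosome 2 belongs to this group. Here and below, the 2 scores of a site come from separate lists and do not measure a change in binding. The first, chr2:98506377-98507501, had a score of 3100 in both JunB lists, the highest JunB score present. Another, chr2:98502375-98503164, scored 2843 before and 2541 after KCl, and the third, chr2:98503783-98504339, scored 818 and 767. In the same group, chr9:35112784-35113188 scored 1801 and 1586, and chrUn_random:5495510-5497277 scored 2197 and 1167. Among the 5 retained sites with the best joint rank of both scores there were also 2 on chrM, 1-5261 and 5324-6450, which share 1 KCl peak and lay in 10 and 13 other lists. The strongest JunB peaks of both conditions were thus also listed with antibodies to c-Fos under c-Fos shRNA. Whether these are binding sites at all was not tested, and the control library of the peak caller is not known here. In all, 20 retained and 19 not retained peaks lay on chrM or unplaced sequence. Without them the KCl c-Fos difference was 39.9 points, and without the 53 sites it was 38.0 points. The unstimulated c-Fos difference was 8.85 points without the 53 sites.

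Few unstimulated JunB peaks lay in H3K27ac, whether retained or not. An H3K27ac peak of either condition overlapped 378 retained peaks (22.4%, Wilson interval 20.5 to 24.4%), 251 not retained peaks (17.5%, 15.6 to 19.5%) and 20.1% of all unstimulated JunB peaks. The low share is thus not particular to retained sites. The retained sites lay in acetylated regions of both conditions in 220 cases (13.03%), of silenced neurons alone in 91 (5.39%) and of KCl alone in 67 (3.97%). Of the acetylated retained sites, 356 lay in distal peaks only and 22 (1.30% of all retained) in a peak outside the authors' distal list. The H3K27ac lists are 1 merged list per condition, so these shares have counting intervals and no replicate error. KCl c-Fos was at 49.9% ± 8.22 of acetylated and 40.6% ± 5.07 of unacetylated retained sites (SD, n = 6 libraries), and unstimulated c-Fos at 9.06% ± 8.73 and 16.5% ± 11.5 (SD, n = 4). Not retained peaks were at 5.05% ± 4.21 and 2.28% ± 0.884 for KCl c-Fos. The gap between retained and not retained peaks was thus present inside and outside acetylated chromatin.

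More retained than not retained peaks sat on marked enhancers. One of the 11830 distal sites with CBP and H3K4me1 lay in 471 retained peaks (27.9%, 25.8 to 30.1%) and 137 not retained peaks (9.53%, 8.12 to 11.2%), with 19.4% over all unstimulated JunB peaks. The authors sorted some of these sites into 4 classes by their H3K27ac, of which that with no H3K27ac is the largest (1886 sites, against 1468 increasing, 800 constant and 738 decreasing). Among the 471 retained peaks with a CBP site, 169 (35.9%) held a site of the class with no H3K27ac, 29 (6.16%) of the decreasing, 25 (5.31%) of the increasing and 16 (3.40%) of the constant class, while 232 held a site in none of the 4. The class with no H3K27ac took 28.5% of the 137 not retained peaks (Wilson interval 21.6 to 36.5%), an interval that overlaps that of retained peaks (31.7 to 40.3%). Wide peaks cover more positions, so the KCl peaks at retained sites (median 738.5 bp) are the fairer match for KCl-only peaks (674 bp). Of the former 34.9% held a CBP site (Wilson interval 32.6 to 37.3%) and of the latter 23.7% (23.1 to 24.3%). Among those with a CBP site, the increasing class was at 6.24% (4.52 to 8.55%) against 18.7% (17.5 to 19.9%). The class with no H3K27ac was at 33.9% (30.1 to 37.9%) against 15.1% (14.0 to 16.2%). A KCl H3K27ac peak overlapped 17.6% of the KCl peaks at retained sites and 28.7% of KCl-only peaks. These intervals do not overlap in any of the 4 contrasts, but they rest on sites from 1 JunB library pair and not on replicate cultures.

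**Figure D4:**
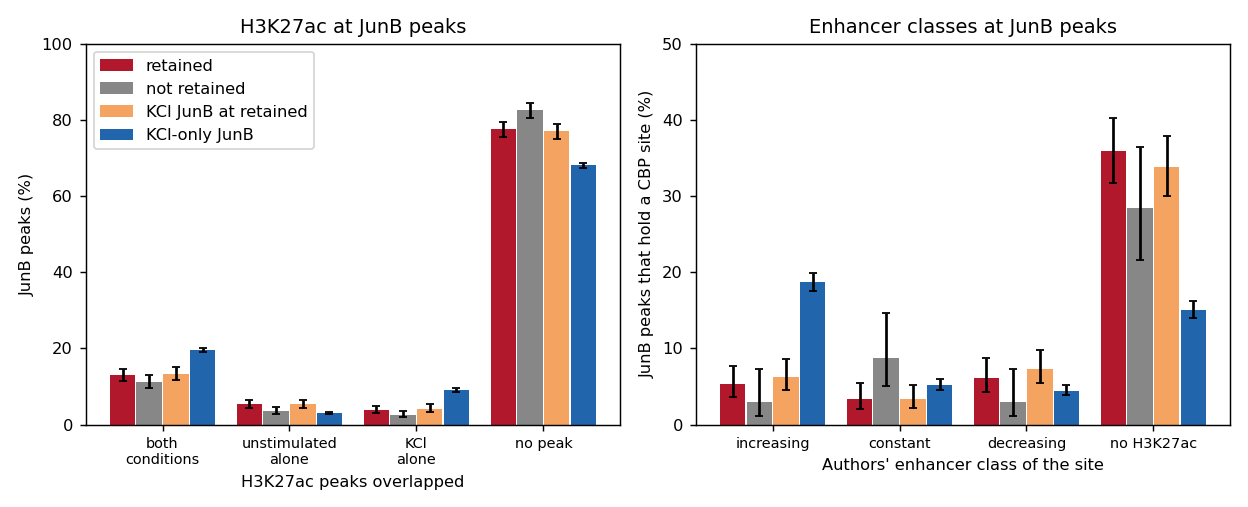
Left, share (%) of retained peaks, not retained peaks, KCl JunB peaks at retained sites and KCl-only JunB peaks by the H3K27ac peaks they overlap. Right, share (%) of those holding a CBP site whose site is in each of the authors' enhancer classes; error bars are Wilson 95% intervals, and KCl-only peaks have 18.7% in the increasing class against 6.24% of the KCl peaks at retained sites.

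Among the 32 retained peaks (outside chromosome 18) in a distal KCl H3K27ac peak and within 500 bp of an increasing enhancer, the 5 with the best joint JunB rank all lay outside H3K27ac in silenced neurons. Their place in a KCl H3K27ac peak was fixed by the choice. The increasing class was itself sorted by H3K27ac, so their lack of it in silenced neurons is not independent of the choice either. At chr11:100687703-100688128 the JunB score was 385 in the unstimulated list and 551 in the KCl list, and chr9:77328848-77329223 had scores of 181 and 561. Both were listed in 6 of 6 KCl c-Fos and 4 of 4 KCl FosB lists, and in 1 of 4 unstimulated c-Fos lists. The site chr13:112695063-112695532 (scores 467 and 406) had the same KCl partners, c-Fos in 2 of 4 and FosB in 2 of 2 unstimulated lists, and no c-Fos under c-Fos shRNA. The site chr4:7888965-7889340 (scores 319 and 259) was in 5 of 6 KCl c-Fos lists. In contrast, chr8:36667566-36668010 (scores 360 and 201) was in 0 of 6 KCl c-Fos lists and 1 of 4 KCl FosB lists. The 5 sites thus ranged from c-Fos in every KCl library to c-Fos in 0.

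JunB was also listed alone. The 3 best-ranked retained sites in none of the 20 other lists were chr4:70471806-70472219 (scores 391 and 336), chr10:8884080-8884467 (320 and 234) and chr6:52808787-52809147 (217 and 170). All 3 lay outside H3K27ac peaks, and the last held a CBP site. For comparison, the best-scoring not retained peak was on chrM (10987-15710, score 3100), followed by chr10:92342664-92343009 (score 426), chr14:23142666-23143217 (426), chr2:25895522-25895939 (361) and chr4:150553011-150553500 (355). Each of these 5 was in exactly 1 unstimulated c-Fos list, and the last was in 1 KCl c-Fos list and the others in 0. In the order given, they were in 2, 0, 1, 2 and 2 of the 2 unstimulated FosB lists. In KCl FosB lists the chrM peak was in 2 of 4, the last in 1 and the others in 0. They were in 7, 1, 4, 3 and 6 of the 20 other lists.

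Knockdown lists showed how the Fos proteins at retained sites fared when their own mRNA was targeted. How much protein remained is not known from these files, and a list can be shorter because of depth. c-Fos was found at 37.4% of retained peaks with control shRNA and 20.2% with c-Fos shRNA in biological sample 5, and at 43.9% and 8.70% in biological sample 6. The changes were -17.2 and -35.2 points, a mean of -26.2 ± 12.8 (SD, n = 2, lower in 2 of 2; exact sign-flip permutation p = 0.5, the smallest possible, adjusted p = 0.5). FosB was found at 52.6% with control shRNA and 43.6% with FosB shRNA in biological sample 5, and at 50.4% and 49.0% in biological sample 6.

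Seen from the control peaks, FosB peaks at retained JunB sites were found again under FosB shRNA more often than those at KCl-only JunB sites, whereas for c-Fos the order depended on whether c-Fos was also listed in silenced neurons. Of the 830 and 846 control FosB peaks at retained sites in biological samples 5 and 6, 73.9% and 71.7% were found under FosB shRNA. At KCl-only JunB sites 40.1% and 35.1% were found, and where no JunB peak was listed 14.9% and 13.4%. At not retained JunB sites 51.5% of 165 and 49.6% of 135 were found, also above KCl-only sites. Over all control FosB peaks the shares were 27.9% and 30.1%. Control FosB peaks at retained sites had higher scores than those at KCl-only sites (median 131 against 114 in biological sample 5 and 146 against 106 in biological sample 6). The part of score in the difference between these 2 kinds was not tested. With the control list split by score into 4 equal groups, in the best-scoring group 92.9% and 89.4% were found at retained and 63.0% and 59.7% at KCl-only sites, and in the lowest group 46.8% and 32.5% against 12.5% and 15.4%. Of the 582 and 686 control c-Fos peaks at retained sites, 42.6% and 12.4% were found under c-Fos shRNA, against 13.1% and 1.08% at KCl-only sites. Here peaks without JunB came between, at 28.7% and 10.7%. At not retained sites 16.7% of 30 and 2.22% of 45 were found, and over all control c-Fos peaks 22.5% and 5.45%. With 2 cultures an exact sign-flip test cannot go below p = 0.5, and these comparisons were chosen after the values were seen. The 53 retained sites listed in every library are in all control and knockdown lists by definition. Shares found again without them were not computed.

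**Figure D5:**
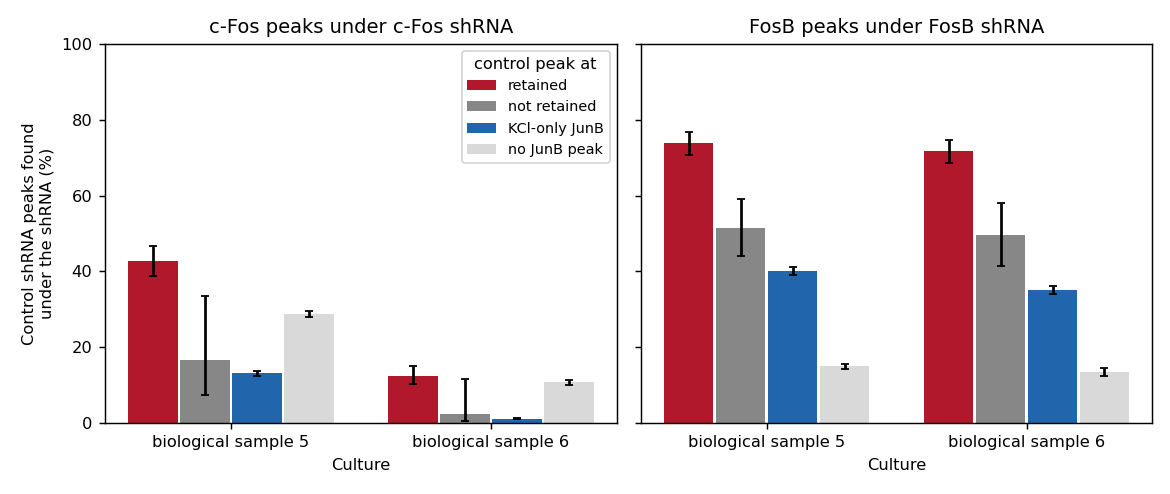
Share (%, vertical axis) of control shRNA peaks of c-Fos (left) and FosB (right) that were found under shRNA against the same protein, by the JunB peak they overlap, in biological samples 5 and 6; error bars are Wilson 95% intervals. FosB peaks at retained sites reach 73.9% and 71.7%, above the other kinds in both cultures.

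The c-Fos peaks that were found again at retained sites were mostly those with c-Fos in silenced neurons too. In biological sample 5, 60.7% of 272 control c-Fos peaks at retained sites with an unstimulated c-Fos peak were found under c-Fos shRNA and 26.8% of 310 without one. In biological sample 6 these shares were 27.01% of 274 and 2.67% of 412. There, 85 control c-Fos peaks at retained sites were found again, 74 of them with an unstimulated c-Fos peak. The 53 retained sites listed in every library have unstimulated, control and c-Fos shRNA peaks by definition. They can thus make up much of this group, and the shares without them were not computed. At KCl-only JunB sites without an unstimulated c-Fos peak, lower shares of 11.3% and 0.619% were found. At KCl-only sites with one the shares were 79.4% of 252 and 37.7% of 130, above those of retained sites with one in both cultures. Control scores differed too, with medians of 207 and 139 at these KCl-only sites in biological samples 5 and 6. At retained sites they were 127 and 145 with an unstimulated c-Fos peak and 98.8 and 109 without. The part of score in these splits was not tested. Few control c-Fos peaks at KCl-only sites had an unstimulated c-Fos peak (252 of 9804 and 130 of 10476). Those without one were also found again less often than at retained sites. The part of either in the lower total at KCl-only sites was not tested. For FosB the split by unstimulated c-Fos was smaller, with 80.7% and 78.8% at retained sites that had it and 69.1% and 66.6% at those that did not.

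KCl JunB peaks with and without an unstimulated partner were compared last, after the values had been seen. KCl c-Fos was at 33.2% to 49.8% of the KCl peaks at retained sites and at 25.7% to 68.5% of KCl-only peaks. The difference was -11.6 ± 10.2 points (SD, n = 6 libraries) and was positive in 1 of 6, sc52 in biological sample 4 (exact sign-flip permutation p = 0.0625, adjusted over 6 tests p = 0.375). For KCl FosB it was 6.27 ± 10.03 points, positive in 3 of 4 libraries (exact permutation p = 0.375, adjusted p = 0.5). Averaged within each culture, the KCl c-Fos difference was -13.3, -3.71, -19.0 and -16.4 points in biological samples 3, 4, 5 and 6, lower at retained sites in 4 of 4 (exact sign-flip permutation p = 0.125, the smallest possible). With 4 FosB libraries the smallest possible p is also 0.125, so no call could be made. In unstimulated lists KCl-only peaks had almost no partner, with c-Fos at 0.520% ± 0.412 (SD, n = 4) against 13.2% ± 10.996 for the KCl peaks at retained sites (exact sign-flip permutation p = 0.125, adjusted p = 0.375). By the rule, the latter all overlap an unstimulated JunB peak and KCl-only peaks overlap none. This contrast thus cannot be told apart from JunB occupancy in silenced neurons. Sites listed in every library also lie only on the retained side. The authors also deposited combined c-Fos sites, and these lay in 19.6% of the KCl peaks at retained sites and 45.6% of KCl-only peaks. The sources used here do not say how they were combined.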

How the data were processed

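Peak lists were taken as deposited. BWA and genome build mm9 are named, without a version of BWA, in the submitters' processing notes. Peak names begin with MACS, per the deposited files, while its version and control library were not given in the sources used here. Column 5 of each list holds the authors' score, deposited on a scale where the lowest value of about 50 stands for p = 1e-05. The CBP sites, enhancer classes and combined c-Fos sites were used as positions only, as deposited.

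Computed here were overlaps of at least 1 bp, shares of peaks per library, Wilson 95% intervals (counting error only) and exact two-sided sign-flip permutation tests over libraries, adjusted by Benjamini-Hochberg over 6 tests. Libraries of the same biological sample share a culture, per the labels, so the replicate block averages within it. Members, lists and comparisons were chosen with earlier results of these data known. The comparisons within score groups, on the KCl side and of peaks found under shRNA, and the alternatives without unplaced sequence or sites in every list, were added after values were seen. Sites were named by rank: the 5 retained peaks with the best joint JunB rank, the 5 in the most other lists, the 5 at increasing enhancers, the 5 best not retained, and the 3 best in no other list, leaving out chromosome 18. Input libraries were not analysed here, and the planned search for DNA motifs needed a genome of build mm9. Overlaps and the test were tested on simulated data. Python 3.11.15, numpy 2.4.6, scipy 1.17.1 and matplotlib 3.10.9 were used.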

Additional observations from a re-analysis of the deposited data

How the results depend on the processing

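The 6 comparisons kept their direction under all 100 alternatives computed for them. The KCl c-Fos difference of 39.9 points kept its unadjusted exact permutation p below 0.05 in 13 of 18 alternatives. In these 13 all 6 libraries stayed in, and p was again 0.03125, the smallest possible. Their count is thus set by the number of libraries, and the adjusted p of the main setting was 0.1875 (Benjamini-Hochberg, sign-flip test). The difference was 37.7 to 41.1 points when each biological sample was left out, with exact permutation p of 0.0625 to 0.125. With the replicate block it was 39.4 points, where p cannot fall below 0.125. Fewer libraries set these limits. The paired values of the other comparisons changed no call, since none could pass. Leaving out biological sample 3 or 4 gave 24.0 or 5.90 points for unstimulated FosB. With the KCl JunB list reduced to its 3126 best-scoring peaks, 20.4% of unstimulated peaks were retained and the differences were 62.7 points for KCl c-Fos, 52.4 for KCl FosB and 17.8 for unstimulated c-Fos, the c-Fos change from silenced to KCl was 51.7, and the change under c-Fos shRNA was -42.9 points. The retained share was 56.6% for scores of at least 100 and 49.6% by centres within 200 bp. With H3K27ac scores of at least 100, 82.5% of retained and 85.7% of not retained peaks lay outside H3K27ac, against 77.6% and 82.5%. Without the 53 sites in every list (added after the results were seen) the unstimulated c-Fos difference was 8.85 points. Among JunB peaks with scores below the median, the differences in silenced neurons were 2.74 points for c-Fos and 5.04 for FosB. Inside non-distal H3K27ac peaks (22 retained, 21 not retained) they were 20.2 and 24.4, and the change under c-Fos shRNA was -15.9; it was -17.2 without biological sample 6. The planned motif count and its other window were not run, since no mm9 genome was used. Depth is unknown for every list, so a missing peak does not show that a site was unbound.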
